A study of Schizosaccharomyces pombe 972h- with 4 samples.

Results

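The genes described here lie near the ends of the 3 chromosomes of Schizosaccharomyces pombe, the fission yeast. They were chosen by name: a target of the array was taken when the systematic name given to it in the study's supplementary gene tables begins with 1 of 18 prefixes that mark stretches of sequence close to a chromosome end. This gave 32 of 4997 targets, which carry 8 of the 18 prefixes. The choice was made with earlier results of these data known. The gene order of the RefSeq table of the reference strain holds 162 genes with these prefixes, so most genes of these stretches were not analysed here. Of the 32 genes, 15 lie at the left end of chromosome III and 7 at its right end, 5 at the left and 2 at the right end of chromosome II, and 2 at the left and 1 at the right end of chromosome I. The 5 genes of chromosome I and of the right end of chromosome II (SPAC977.16c, SPAC977.17, SPAC869.02c, SPBPB2B2.01 and SPBPB2B2.06c) have a name here only because they stand in the study's lists of genes that changed in hypoxia, lists which were drawn up on the same arrays. Their ratios are therefore a description and no independent evidence of a direction, and counts are given below for the other 27 genes as well. SPBC359.02 stands in those lists too, but is also named in the main gene table.

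The study asked how transcription in hypoxia depends on Ofd2, an enzyme of the 2-oxoglutarate and iron dependent dioxygenase family with activity on histone H2A. Cells deleted for Ofd2 (Ofd2Δ, strain DL1003, mating type h-, with a KAN marker at the locus) and wild type cells (wt, strain 972, mating type h-) were grown in rich medium with glucose at 30 °C and then kept for 90 min in hypoxia (below 1% oxygen, in a sealed AnaeroGen system) or in normal oxygen (20%, in open flasks). Each of the 4 conditions, Ofd2Δ in hypoxia, wt in hypoxia, Ofd2Δ in normal oxygen and wt in normal oxygen, was measured on 1 array with RNA pooled from 2 experiments, so no difference has a replicate check and no p-value is given. The labels name 1 deletion strain. For the genes described here, nothing on these arrays shows whether a second clone would behave alike. The study reports similar results by quantitative PCR in further deletion strains, but for other genes.

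The ends of fission yeast chromosomes carry heterochromatin, a compact form of chromatin in which histone H3 is methylated by the enzyme Clr4 and bound by the protein Swi6. Many genes next to it are transcribed little in rich medium, and several belong to families with copies at more than 1 end. The ends of chromosome III differ from the others, because the arrays of ribosomal RNA genes lie there between the telomere and the first genes.

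A target has 14 spots, since each of its 7 probes (60 bases long) is printed in both blocks of the array. A level is the normalised intensity of a target on a linear scale, averaged over both blocks on the log scale. A ratio is the mean of the ratios of the 2 blocks, either of hypoxia over normal oxygen within a strain (the hypoxia ratio) or of Ofd2Δ over wt within a condition. The thresholds are taken from the study, 2-fold in either direction for a hypoxia ratio and 1.5-fold between the hypoxia ratios of the strains. The study set the 1.5-fold limit only on genes that had changed 2-fold. Here it is applied to all genes, and also to hypoxia ratios within a strain and to ratios of Ofd2Δ over wt within a condition. A target is called dim when its mean level over the 4 arrays lies under the 25th percentile of all targets. This speaks of the signal of its own probes and not of the number of transcripts, since probes differ in how well they bind. The median gene spot was 4009 on the Ofd2Δ hypoxia array, against 6597 to 7529 on the other arrays, and the median control spot, which carries a random sequence, was 112 to 126. This array was also scanned apart from the others, and its differences from any other array cannot be told apart from those of the scan. That limit holds for every hypoxia ratio of Ofd2Δ cells and for every ratio of Ofd2Δ over wt in hypoxia. The loss of ofd2 itself was not checked, for lack of a target named for it.

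Of the 32 genes, 14 were dim, against 25% of all targets, the share that the limit sets. At the left end of chromosome III the dim targets were the 6 outermost measured genes, SPCP20C8.01c, SPCP20C8.02c, SPCP20C8.03, SPCC1884.01, SPCC1884.02 and SPCC757.02c, and 0 of the 9 genes further in. The boundary rests on a small step. SPCC757.02c, a predicted epimerase gene that is the last dim one, had a level of 3427 in Ofd2Δ and 3313 in wt cells in hypoxia, and of 2913 in Ofd2Δ and 3150 in wt cells in normal oxygen. Its neighbour SPCC757.03c (hsp3101), which encodes a glyoxalase of the heat shock protein 31 family, lay just above the limit with 3223 in Ofd2Δ and 3267 in wt cells in hypoxia, and 3329 and 3701 in normal oxygen. At the right end of chromosome III, 2 of 7 genes were dim, at the left end of chromosome II 3 of 5, at its right end both, and on chromosome I 1 of 3. The 27 named targets that follow inward in array order at both ends of chromosome III and at the left end of chromosome II held 8 dim ones. These were 6 of 15 at the left end of chromosome III, 1 of 7 at its right end and 1 of 5 on chromosome II. The left end of chromosome III thus held as many dim targets as its inward neighbours. Of the 27 genes described here that are named in the main table, which lie at the same ends, 11 were dim. Dim does not mean absent here: on all 4 arrays at least 12 of the 14 spots of each of the 32 genes were brighter than 95% of the control spots, and the median raw spot of a gene was 3.03 to 406 times the control median.

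**Figure D1:**
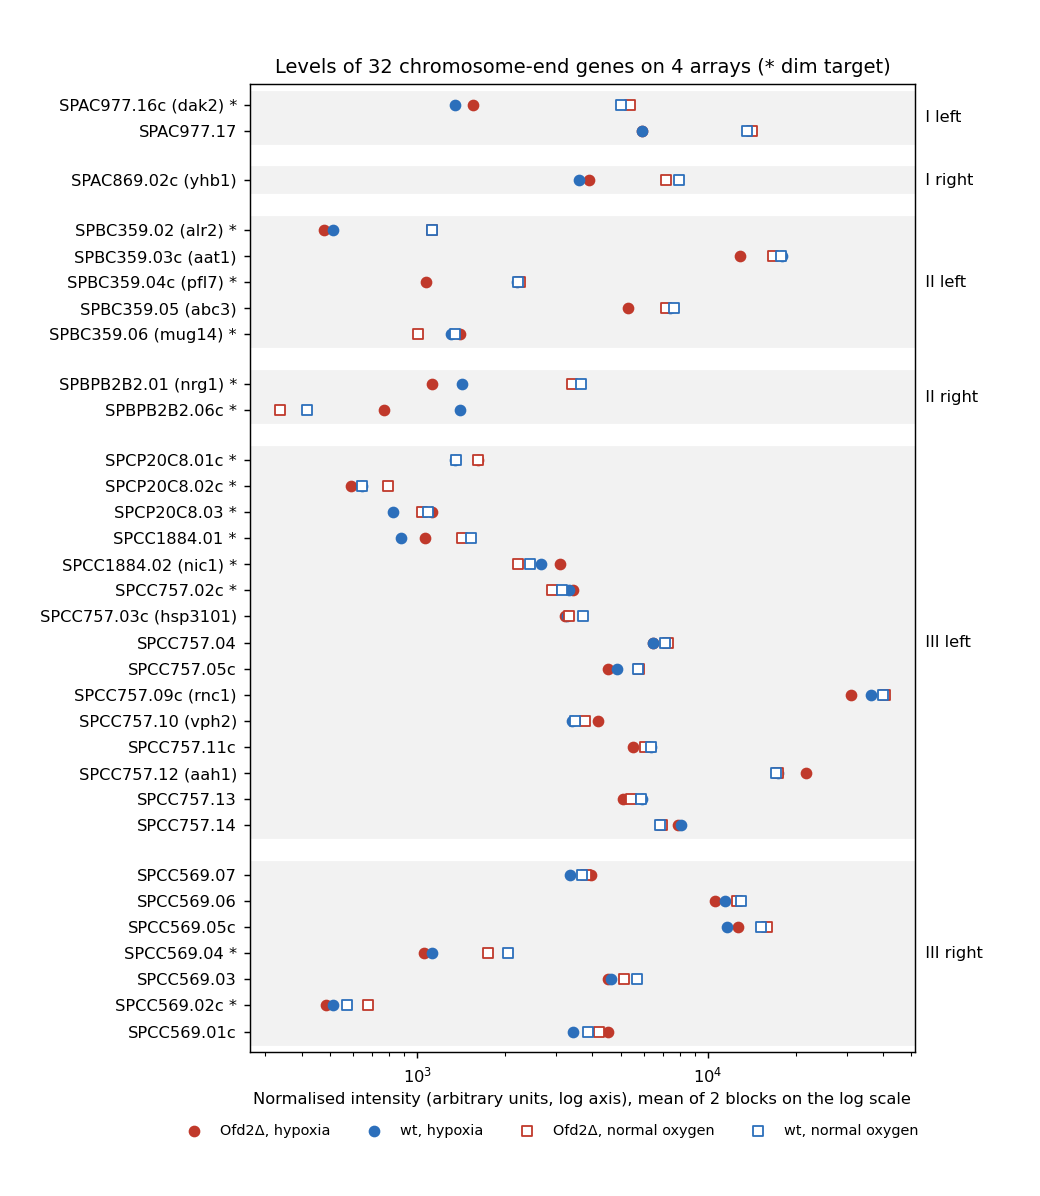
Normalised intensity (x axis, log scale, arbitrary units) of the 32 genes on the 4 arrays, in gene order within each chromosome end (filled circles hypoxia, open squares normal oxygen; red Ofd2Δ, blue wt). An asterisk marks the 14 dim targets; the 6 outermost genes of chromosome III left are all dim, and SPBC359.04c (pfl7) has its Ofd2Δ hypoxia value of 1073 apart from the 3 others at 2202 to 2254.

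In hypoxia most of these genes changed little, and the few that changed were mostly lower. The median hypoxia ratio of the 32 genes was 0.865 in Ofd2Δ and 0.911 in wt cells, against 1.02 over all targets in both strains. A 2-fold lower level was found for 5 of the 32 genes in Ofd2Δ cells, where 0.78% of all targets had one, and for 5 in wt cells, where 0.46% did. Only SPBPB2B2.06c was at least 2-fold higher, in both strains, against 0.36% of all targets in Ofd2Δ and 0.1% in wt cells. These counts lean on the way the genes were named. Of the 27 genes named in the main table, 2 were 2-fold lower in Ofd2Δ cells (SPBC359.02 and SPBC359.04c) and 1 in wt cells (SPBC359.02), 0 were higher, and the medians were 0.888 and 0.912. A ratio below 1 was found for 21 of the 32 genes in Ofd2Δ and for 23 in wt cells, against 2313 and 2137 of all 4997 targets. At 1.5-fold, 7 genes were lower in each strain, against 2.5% of all targets in Ofd2Δ and 2.06% in wt cells, and 1 was higher in each, against 2.6% and 0.6%. Of the 27 genes of the main table, 3 were at least 1.5-fold lower in each strain, 0 were higher, and 17 in Ofd2Δ and 19 in wt cells had a ratio below 1. The direction of the small differences depended on the values used. In the deposited table, 9 of the 32 genes lay on the other side of 1 in Ofd2Δ cells and 1 in wt cells.

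**Figure D2:**
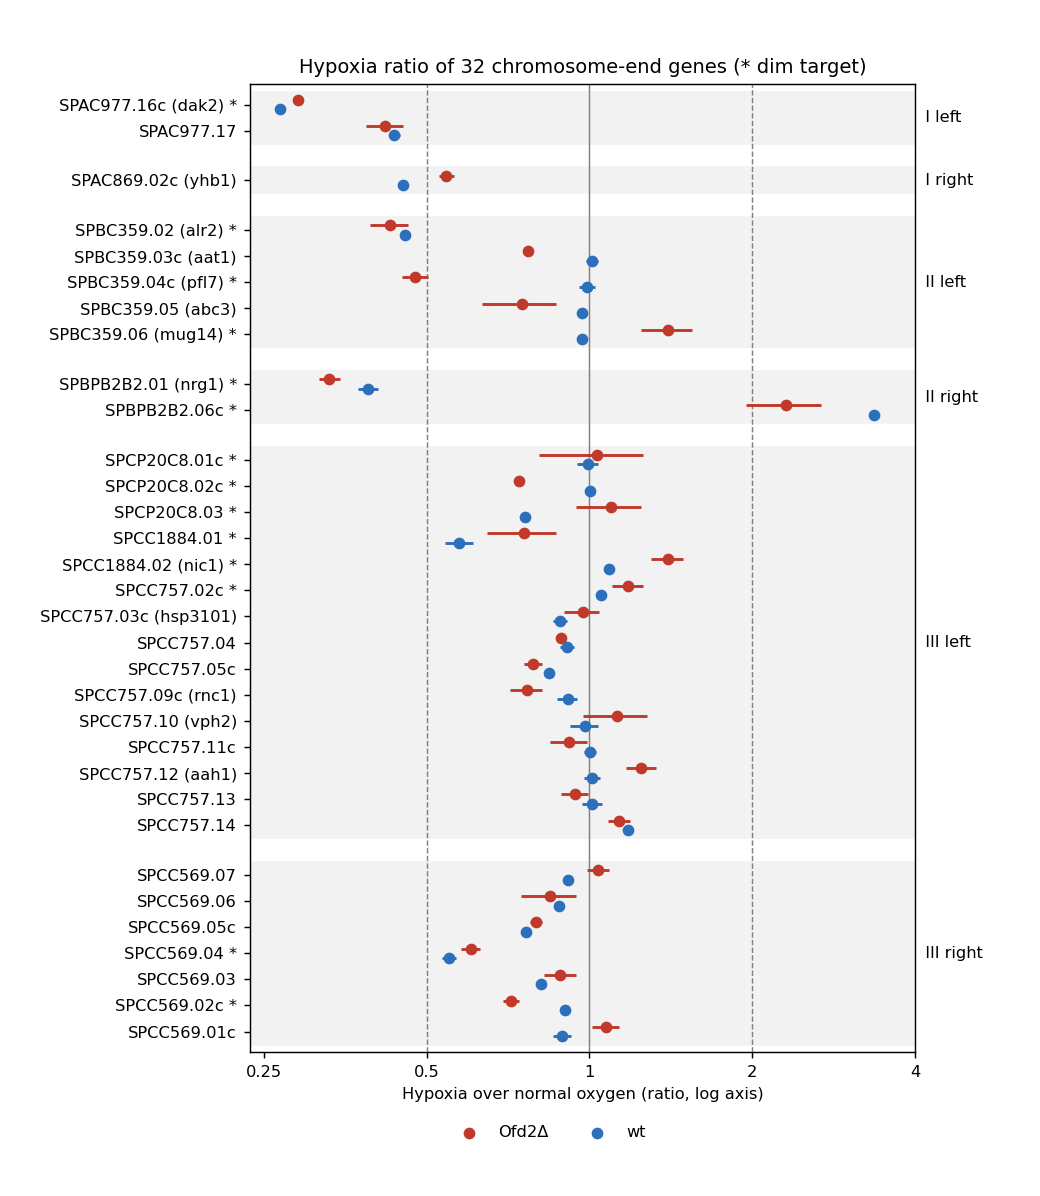
Hypoxia ratio (x axis, hypoxia over normal oxygen, log scale) of the 32 genes in Ofd2Δ (red) and wt (blue) cells, points the mean of the 2 blocks and lines running from 1 block to the other; dashed lines mark 0.5 and 2. SPAC977.16c (dak2) has the lowest ratios, 0.289 in Ofd2Δ and 0.268 in wt cells, and SPBPB2B2.06c the highest, 2.31 and 3.36, while the genes of chromosome III lie between 0.550 and 1.39.

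At the left end of chromosome I, SPAC977.16c and SPAC977.17 are neighbours, the 29th and 30th genes from the end. SPAC977.16c (dak2) encodes a dihydroxyacetone kinase, which phosphorylates dihydroxyacetone in the breakdown of glycerol. Its level was 1553 in Ofd2Δ and 1348 in wt cells in hypoxia, against 5379 in Ofd2Δ and 5029 in wt cells in normal oxygen. Both hypoxia arrays thus lay well below both normal oxygen arrays, and the 2 strains lay close together within a condition. The hypoxia ratio was 0.289 in Ofd2Δ cells (blocks 0.285 and 0.292) and 0.268 in wt cells (blocks 0.269 and 0.267), and all 14 spots were lower in each strain. The gene next to it, SPAC977.17, encodes a membrane channel of the aquaglyceroporin type, judged by its similarity to a Saccharomyces cerevisiae protein. It had a level of 5934 in Ofd2Δ and 5911 in wt cells in hypoxia, against 14186 in Ofd2Δ and 13572 in wt cells in normal oxygen. Here too the hypoxia values of the 2 strains nearly coincided and stood below both normal oxygen values, with ratios of 0.420 and 0.436 and all 14 spots lower in each strain. SPAC977.17 is not dim, whereas dak2 is.

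At the right end of chromosome I, SPAC869.02c (yhb1), the 19th gene from the end, encodes a flavohemoprotein, an enzyme that uses oxygen to detoxify nitric oxide. Its level was 3905 in Ofd2Δ and 3592 in wt cells in hypoxia, against 7184 in Ofd2Δ and 7932 in wt cells in normal oxygen. The hypoxia ratio was 0.544 in Ofd2Δ cells, short of the 2-fold limit, and 0.453 in wt cells. All 14 spots were lower in each strain, and the ratio of the 2 ratios, 1.20, lies inside the 1.5-fold limit between the strains. In Ofd2Δ cells the call depends on the values used, since the deposited table gave a ratio of 0.369.

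The right end of chromosome II holds 2 measured genes that went opposite ways. SPBPB2B2.01, the 26th gene from the end (symbol nrg1 in the RefSeq table), encodes an amino acid permease similar to isp5. Its level was 1126 in Ofd2Δ and 1427 in wt cells in hypoxia, against 3409 in Ofd2Δ and 3660 in wt cells in normal oxygen, with ratios of 0.331 and 0.390. SPBPB2B2.06c, the 23rd gene from the end, encodes a predicted nucleotidase. Its level was 769 in Ofd2Δ and 1406 in wt cells in hypoxia, against 337 in Ofd2Δ and 419 in wt cells in normal oxygen. All 14 spots were higher in hypoxia in each strain for SPBPB2B2.06c and all 14 lower for SPBPB2B2.01. The hypoxia ratio of SPBPB2B2.06c was 2.31 in Ofd2Δ cells, with blocks of 2.68 and 1.94, and 3.36 in wt cells, with blocks of 3.33 and 3.39. Both genes are dim. The array's annotation names a closely similar second protein of fission yeast for SPBPB2B2.06c, and signal from a copy cannot be told apart from its own. Its ratio in Ofd2Δ cells was 1.75 with another background correction and 4.24 in the deposited table.

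**Figure D3:**
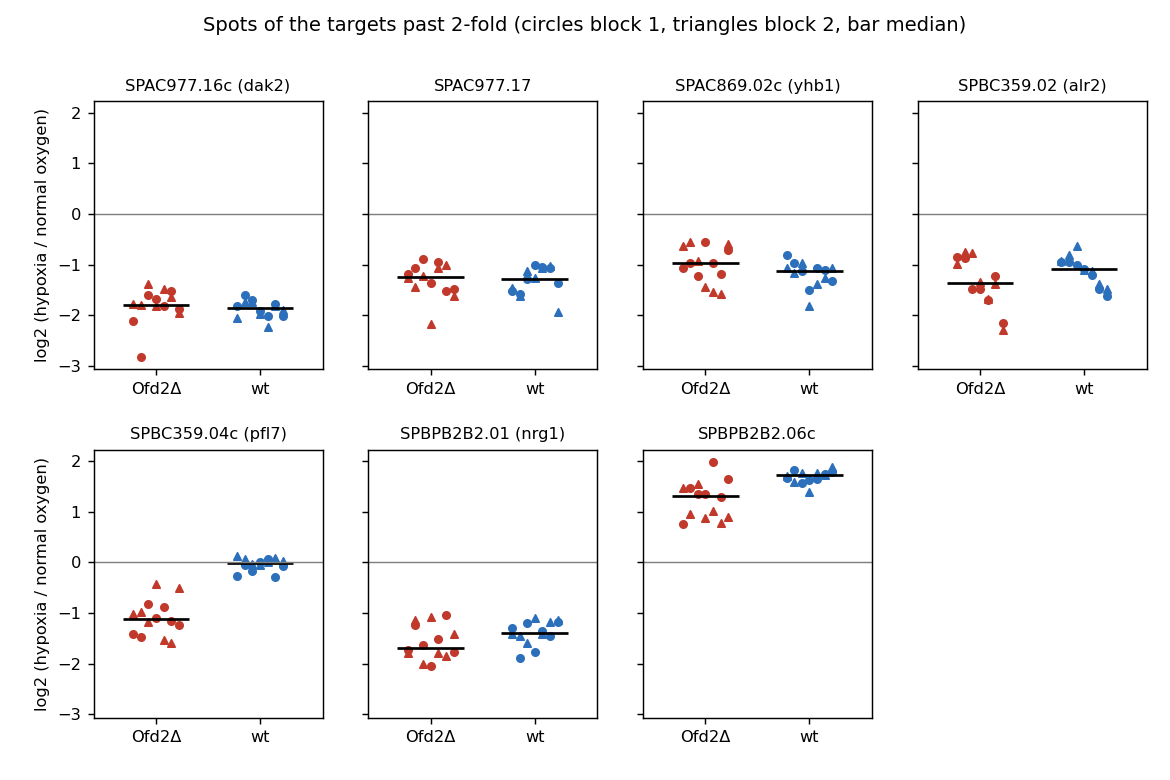
The log2 of the hypoxia to normal oxygen ratio (y axis) of each of the 14 spots of the 7 genes past 2-fold in either strain, Ofd2Δ on the left and wt on the right of each panel; circles are block 1, triangles block 2 and bars the median. All spots of SPBC359.04c (pfl7) lie below 0 in Ofd2Δ cells, while 7 of its 14 spots do in wt cells.

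At the left end of chromosome II the 5 measured genes, SPBC359.02 to SPBC359.06, are the 38th to the 42nd from the end and follow one another. The outermost of them, SPBC359.02 (alr2), encodes an alanine racemase. Its level was 478 in Ofd2Δ and 514 in wt cells in hypoxia, against 1122 in Ofd2Δ and 1128 in wt cells in normal oxygen. Of the 27 genes described here that are named in the main gene table, it was the 1 that was 2-fold lower in both strains. Its ratios were 0.427 and 0.455, with all 14 spots lower in each strain. The RMA background ended this call in both strains, at 0.526 in Ofd2Δ and 0.561 in wt cells, median scaling of the arrays ended it in Ofd2Δ cells (0.539) and the median of the probes in wt cells (0.524). The gene is dim, and on the Ofd2Δ hypoxia array 12 of its 14 spots were brighter than 95% of the control spots.

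SPBC359.04c (pfl7), which encodes a predicted cell surface glycoprotein of the flocculin family, differed most between the strains. Its level was 1073 in Ofd2Δ cells in hypoxia and 2202 in wt cells in hypoxia, against 2254 in Ofd2Δ and 2224 in wt cells in normal oxygen. The single low value was that of the Ofd2Δ hypoxia array, and the 3 others lay within a narrow range. The hypoxia ratio was 0.477 in Ofd2Δ cells, with blocks of 0.451 and 0.503, and 0.991 in wt cells. The ratio of the 2 ratios was 0.481, and pfl7 was the 1 gene of the 32 whose 2 hypoxia ratios differed by over 1.5-fold (0.56% of all targets lay beyond it on the lower side and 1.6% on the higher, where 0 of the 32 genes did). In hypoxia all 14 spots were lower in Ofd2Δ than in wt cells (ratio 0.487), and in normal oxygen 5 of 14 were (ratio 1.01). The low value stands on the array that was scanned apart, and the part of the scan in it was not tested. In the deposited table the hypoxia ratio of pfl7 in Ofd2Δ cells was 0.765 and the ratio of the ratios 0.771, inside the limit. With the arrays scaled to a common median they were 0.614, short of 2-fold, and 0.637, still past the 1.5-fold limit.

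The genes around pfl7 had smaller differences. SPBC359.03c (aat1) encodes an amino acid permease, and its level was 12881 in Ofd2Δ and 17946 in wt cells in hypoxia, against 16709 in Ofd2Δ and 17770 in wt cells in normal oxygen. SPBC359.05 (abc3) encodes an ABC transporter of the vacuolar membrane, and its level was 5314 in Ofd2Δ and 7400 in wt cells in hypoxia, against 7166 in Ofd2Δ and 7633 in wt cells in normal oxygen. As for pfl7, the lowest of the 4 values was that of the Ofd2Δ hypoxia array for each of these transporters. Their hypoxia ratios were 0.771 for aat1 and 0.751 for abc3 in Ofd2Δ cells, and 1.01 and 0.970 in wt cells. The 2 blocks of abc3 in Ofd2Δ cells were apart, at 0.633 and 0.869. In hypoxia, Ofd2Δ over wt, aat1 had a ratio of 0.718 with 13 of 14 spots lower, and abc3 a ratio of 0.724 with 12 of 14 lower. A ratio below 1 was not particular to them. The 5 named targets that follow inward in array order at this end had a median of 0.824, and all 5 lay below 1. In the deposited table the hypoxia ratio in Ofd2Δ cells was 1.02 for aat1, on the other side of 1, and 0.955 for abc3.

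SPBC359.06 (mug14), named among genes upregulated in meiosis and similar to the cytoskeletal protein adducin, had the opposite pattern. Its level was 1401 in Ofd2Δ and 1306 in wt cells in hypoxia, against 1009 in Ofd2Δ and 1346 in wt cells in normal oxygen. The value set apart was that of Ofd2Δ cells in normal oxygen, on which all 14 spots were lower than in wt cells (ratio 0.750). The hypoxia ratio was 1.40 in Ofd2Δ and 0.971 in wt cells, and it did not reach 2-fold in either strain. With median scaling it was 1.94 in Ofd2Δ cells, and the ratio of the ratios was 2.08, past the 1.5-fold limit that the reported value of 1.44 does not reach. Passing it on that side was more common with this scaling, at 449 of all 4997 targets against 80 as reported.

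The 15 genes of the left end of chromosome III had hypoxia ratios of 0.742 to 1.39 in Ofd2Δ cells and of 0.574 to 1.18 in wt cells, with medians of 0.971 and 0.992, and 0 of them reached 2-fold in either strain. The first 3 genes of this end belong to, or resemble, short repeated genes of chromosome ends. SPCP20C8.01c, the first gene, had a level of 1623 in Ofd2Δ and 1343 in wt cells in hypoxia, against 1613 in Ofd2Δ and 1355 in wt cells in normal oxygen. The second, SPCP20C8.02c, had 591 in Ofd2Δ and 645 in wt cells in hypoxia, against 796 in Ofd2Δ and 644 in wt cells in normal oxygen. The third, SPCP20C8.03, listed as a pseudogene, had 1124 in Ofd2Δ and 827 in wt cells in hypoxia, against 1036 in Ofd2Δ and 1090 in wt cells in normal oxygen. Of these 12 values none stands more than 1.5-fold from the same gene's value in the other oxygen condition, and the ratios were 1.03, 0.742 and 1.10 in Ofd2Δ cells and 0.992, 1.00 and 0.759 in wt cells. SPCP20C8.01c is the gene on which the deposited table and the probe intensities part most clearly: the table gave a ratio of 3.18 in Ofd2Δ cells, past 2-fold, and 1.07 in wt cells. The table also turned the direction of the other 2 in Ofd2Δ cells, with 1.30 for SPCP20C8.02c and 0.760 for SPCP20C8.03. The spots of SPCP20C8.01c did not agree among themselves, with 8 higher and 6 lower in Ofd2Δ cells and spot ratios of 0.347 to 1.58.

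Further in, SPCC1884.01, annotated as similar to a capsid protein of a yeast virus and as a possible pseudogene, had the lowest ratio of this end in wt cells. Its level was 1067 in Ofd2Δ and 879 in wt cells in hypoxia, against 1426 in Ofd2Δ and 1535 in wt cells in normal oxygen. The ratios were 0.757 in Ofd2Δ and 0.574 in wt cells, and 13 of 14 spots were lower in each strain. With median scaling the ratio in Ofd2Δ cells was 1.00. SPCC1884.02 (nic1), next to it, encodes a nickel transporter of the plasma membrane, and its level was 3093 in Ofd2Δ and 2666 in wt cells in hypoxia, against 2224 in Ofd2Δ and 2448 in wt cells in normal oxygen. Its ratio of 1.39 in Ofd2Δ cells was the highest of this end, with 13 of 14 spots higher, and that in wt cells was 1.09.

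The SPCC757 genes followed with small differences in both strains. The brightest target at this end was SPCC757.09c (rnc1), which encodes an RNA-binding protein of the KH domain type. Its level was 30945 in Ofd2Δ and 36352 in wt cells in hypoxia, against 40528 in Ofd2Δ and 39941 in wt cells in normal oxygen, with ratios of 0.765 and 0.911. SPCC757.12 (aah1), a homologue of alpha-amylase genes, had 21621 in Ofd2Δ and 17352 in wt cells in hypoxia, against 17392 in Ofd2Δ and 17148 in wt cells in normal oxygen, and ratios of 1.25 and 1.01. Median scaling turned the ratio of aah1 in Ofd2Δ cells to 0.885. Among the others, SPCC757.05c, a predicted peptidase gene, had the lowest ratios, 0.787 in Ofd2Δ and 0.842 in wt cells, though the deposited table gave 1.05 in Ofd2Δ cells. SPCC757.14, a short transporter-like gene that was not found in the RefSeq table, had ratios of 1.13 and 1.18. The remaining genes, hsp3101, SPCC757.02c, SPCC757.04 (a zinc cluster transcription factor), SPCC757.10 (vph2, which acts in assembly of the vacuolar proton pump), SPCC757.11c and SPCC757.13 (both predicted transporters), had ratios of 0.888 to 1.18 in Ofd2Δ and 0.883 to 1.05 in wt cells.

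At the right end of chromosome III the ratios ran from 0.604 to 1.07 in Ofd2Δ and from 0.550 to 0.912 in wt cells, with medians of 0.845 and 0.880. All 7 genes had a ratio below 1 in wt cells and 5 of 7 in Ofd2Δ cells. The lowest was SPCC569.04, the fourth gene from the end, a short gene of unknown function. Its level was 1056 in Ofd2Δ and 1128 in wt cells in hypoxia, against 1751 in Ofd2Δ and 2052 in wt cells in normal oxygen. The ratios of 0.604 and 0.550 were past 1.5-fold but short of 2-fold, and 13 of 14 spots were lower in Ofd2Δ and 14 of 14 in wt cells. In Ofd2Δ cells the ratio was 0.873 in the deposited table and 0.822 with median scaling, inside 1.5-fold.

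Its 3 outer neighbours belong to repeat families of the chromosome ends. SPCC569.01c, the last gene, and SPCC569.03 resemble one another and encode repeat proteins with predicted coiled coils, and the annotation of SPCP20C8.01c at the other end of the chromosome names the product of SPCC569.02c as similar to it. SPCC569.03 had a level of 4519 in Ofd2Δ and 4630 in wt cells in hypoxia, against 5123 in Ofd2Δ and 5682 in wt cells in normal oxygen. SPCC569.02c had 485 in Ofd2Δ and 515 in wt cells in hypoxia, against 676 in Ofd2Δ and 572 in wt cells in normal oxygen. SPCC569.01c had 4511 in Ofd2Δ and 3431 in wt cells in hypoxia, against 4208 in Ofd2Δ and 3859 in wt cells in normal oxygen. SPCC569.02c was the dim one of the 3, with all 14 spots lower in hypoxia in each strain at ratios of 0.718 in Ofd2Δ and 0.901 in wt cells. Its ratio in Ofd2Δ cells turned to 1.21 in the deposited table and 1.02 with median scaling, and that of SPCC569.01c, reported as 1.07, to 0.690 in the deposited table. Where copies are near-identical their probes can share signal, so that the 6 repeat genes of both ends, with median ratios of 0.958 in Ofd2Δ and 0.895 in wt cells, are uncertain one by one.

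Toward the inside of this end, SPCC569.05c, a predicted transporter gene, had ratios of 0.796 in Ofd2Δ and 0.763 in wt cells, with 11 and 14 of 14 spots lower. It had the level 12633 in Ofd2Δ and 11616 in wt cells in hypoxia, against 15876 in Ofd2Δ and 15222 in wt cells in normal oxygen, and was the brightest target of this end. SPCC569.06 had ratios of 0.845 and 0.880, and SPCC569.07, a predicted aminotransferase gene, 1.04 and 0.912.

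Sorted by the roles of their products, the 9 transporter genes had a median hypoxia ratio of 0.796 in Ofd2Δ and 1.00 in wt cells, with SPAC977.17 and SPBPB2B2.01 2-fold lower in both. The 9 enzyme genes had medians of 0.971 and 0.883. Among these enzyme genes dak2 and alr2 were 2-fold lower in both strains and yhb1 in wt cells, and SPBPB2B2.06c was 2-fold higher in both. Over all targets, 0.78% were 2-fold lower in Ofd2Δ and 0.46% in wt cells, and 0.36% and 0.1% were 2-fold higher. SPAC977.17, SPBPB2B2.01, dak2, yhb1 and SPBPB2B2.06c have a name here only through the study's lists of changed genes. Their calls, and their part in these medians, are therefore no independent evidence. The 6 genes of regulation and other functions had medians of 0.867 and 0.941, and pfl7 was 2-fold lower in Ofd2Δ cells. SPCC1884.01 and SPCC569.04, grouped as pseudogene-like although the RefSeq table lists both as protein-coding, had medians of 0.680 and 0.562. The 27 inward neighbours come from both ends of chromosome III and the left end of chromosome II, all through the main gene table. Of these neighbours, 0 were 2-fold higher or lower in either strain, and their medians were 0.937 in Ofd2Δ and 0.965 in wt cells. Of the 27 genes described here from the main table, which lie at the same ends, 2 in Ofd2Δ and 1 in wt cells were 2-fold lower. Among them 0 were 2-fold higher, and their medians were 0.888 and 0.912.

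Between the strains at the same oxygen level, the medians of the 32 genes were close to 1. In hypoxia the median of Ofd2Δ over wt was 0.984, with pfl7 (0.487) and SPBPB2B2.06c (0.547) at least 1.5-fold lower, against 0.56% of all targets, and 0 genes at least 1.5-fold higher, against 1.26%. The side of 1 on which this median fell depended on the values used, since it was 1.08 in the deposited table and 1.10 with the arrays scaled to a common median. In hypoxia all 14 spots of pfl7 and of SPBPB2B2.06c were lower in Ofd2Δ than in wt cells. In normal oxygen pfl7 was at 1.01, while SPBPB2B2.06c was already lower, at 0.811 with 12 of 14 spots lower. The ratio of the 2 hypoxia ratios of SPBPB2B2.06c, 0.689, lay inside the 1.5-fold limit. In the deposited table neither 1.5-fold call in hypoxia held, with 0.789 for pfl7 and 0.941 for SPBPB2B2.06c. Median scaling kept the call of pfl7, at 0.604, but not that of SPBPB2B2.06c, at 0.710. In normal oxygen the median was 0.980 and 0 genes were 1.5-fold lower or higher, against 0.16% and 0.04% of all targets. The blocks, which share an array and an RNA pool and so show technical spread alone, differed in the log2 of the Ofd2Δ hypoxia ratio by a median of 0.19 over the 32 genes, and in that of wt by 0.061.

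**Figure D4:**
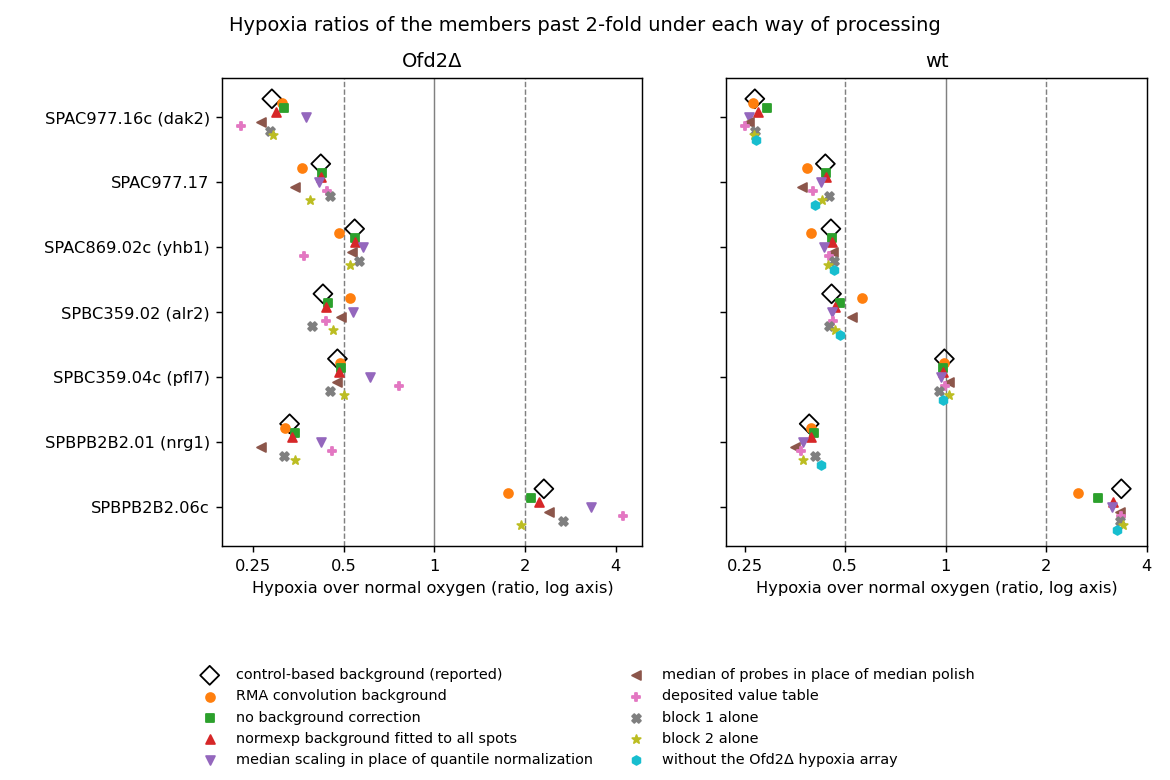
Hypoxia ratios (x axis, log scale) of the 7 genes past 2-fold, Ofd2Δ on the left and wt on the right, with open diamonds for the reported values and coloured symbols for each other way of processing; dashed lines mark 0.5 and 2. SPAC977.16c (dak2), SPAC977.17 and SPBPB2B2.01 stay below 0.5 in both strains at every setting drawn, while pfl7 in Ofd2Δ cells runs up to 0.765. Unlike pfl7, dak2, SPAC977.17 and SPBPB2B2.01 have a name here only through the study's lists of genes changed on these same arrays. Their place below 0.5 is therefore a description and no independent evidence.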

How the data were processed

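Deposited by the authors were probe files and a value table. The probe files give the scanned intensity of each 60-base probe in the single channel, extracted with NimbleScan 2.4.31 and neither background-corrected nor normalised. The deposited value table holds normalised gene intensity values in 2 blocks per target, for which the submitters' processing notes name RMA without a version. How the arrays were brought to 1 scale in it is not given in the sources used here, and it served only as an alternative. Its column medians were 5726 for Ofd2Δ and 5440 for wt cells in hypoxia, and 5378 and 5446 in normal oxygen. Ratio columns of the supplementary tables hold the authors' own comparisons and were not used.

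Probe intensities were corrected with limma's normexp background fitted to the control spots (offset 50), brought to 1 distribution by quantile normalisation of the 4 arrays, and combined per target and block by median polish of their log2 values. The RMA convolution background had been planned, but its estimates, 1834 on the Ofd2Δ hypoxia array and 1586 on the wt normal oxygen array, lay far above the control spots (117 and 127 by the control-based fit). It was replaced after values had been seen, and is given as an alternative. Ratios are the mean of the 2 block ratios, as in the study. No test was made. An additive fit of strain and oxygen over the 4 arrays would leave 1 residual degree of freedom and would count any difference of the hypoxia response between the strains as error. The number of arrays limits the precision.

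The 32 members, their lists by end and role and the tests were chosen with earlier results of these data known. Values on every array are given for members past 2-fold or outside the 1.5-fold limit, for duplicated genes and for the brightest and dimmest target of each end. A few others beside them were named after their values had been seen. Names came from the study's supplementary tables, of which the main one was held for 1694 targets, all with the values of the deposited table. The order of genes and the symbols came from the RefSeq table of assembly ASM294v3, in which 31 of the 32 members were found and 13 have a symbol. Files of the arrays name no genome build, so no coordinates are given. Planned searches of promoters and of protein identity were not run, since no sequences were used here. The steps were tested on simulated data. Tools were R 4.3.3 with limma 3.58.1, and Python 3.11.15 with matplotlib 3.10.9, scipy 1.17.1, pandas 2.3.3 and numpy 2.4.6.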

Additional observations from a re-analysis of the deposited data

Results flagged for a closer look

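Both blocks moved one way with hypoxia in Ofd2Δ cells and both the other way in wt cells for 2 of the 32 genes (6.25%), a pattern seen for 705 of all 4997 targets (14.1%). For SPBC359.06 (mug14) the hypoxia ratio was 1.40 in Ofd2Δ and 0.971 in wt cells, a ratio of ratios of 1.44, and median scaling gave 2.08. Under that scaling 449 of all 4997 targets lay past 1.5-fold on the higher side. For SPCC569.01c, the last gene of chromosome III right, it was 1.07 in Ofd2Δ and 0.890 in wt cells, a ratio of ratios of 1.21. The deposited table turned both the direction in Ofd2Δ cells (0.690) and the difference between the strains (ratio of ratios 0.763) of SPCC569.01c. In mug14 the value set apart was that of Ofd2Δ cells in normal oxygen, with a ratio to wt of 0.750 and all 14 spots lower. In hypoxia its ratio to wt was 1.08. Neither difference was tested, and the part of the separate scan of the Ofd2Δ hypoxia array in the Ofd2Δ hypoxia ratios cannot be told apart.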

How the results depend on the processing

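No paired analysis was possible because the conditions share a single replicate number, and a pairing of oxygen conditions within the strains was not fitted. Medians of the 2 hypoxia ratios stayed below 1 under every alternative run, while the 3 medians between the strains, all close to 1, lay on either side of it. The reported values are medians of 0.865 (Ofd2Δ hypoxia ratio), 0.911 (wt), 1.01 (ratio of the 2 ratios), 0.984 (Ofd2Δ over wt in hypoxia) and 0.980 (in normal oxygen), with 5 genes lower and 1 higher in each strain's hypoxia ratio, 1 lower between the ratios, 2 lower between the strains in hypoxia, and 14 dim. Of all 4997 targets, 39 were lower and 18 higher in Ofd2Δ cells, and 23 and 5 in wt cells. Between the ratios 28 of all targets were lower and 80 higher. Between the strains 28 were lower and 63 higher in hypoxia, and 8 were lower in normal oxygen. The deposited table gave an Ofd2Δ median of 0.978 with 2 higher, a ratio of ratios of 1.15 with 4 higher and 0 lower, and a strain ratio in hypoxia of 1.08 with 3 higher and 0 lower. Of all targets, 25 were higher in Ofd2Δ cells there, and 53 higher and 27 lower between the ratios. Between the strains in hypoxia 40 were higher and 17 lower. Scaling to a common median gave an Ofd2Δ median of 0.948 with 3 lower, a ratio of ratios of 1.15 with 4 higher and 3 lower, a strain ratio in hypoxia of 1.10 with 4 higher, and 1 lower in normal oxygen. With this scaling the counts over all targets rose too. Of all targets, 42 were lower in Ofd2Δ cells, and 449 were higher and 255 lower between the ratios. Between the strains 285 were higher in hypoxia and 15 lower in normal oxygen. The median of the probes gave an Ofd2Δ median of 0.771, 1 higher and 2 lower between the ratios, and 1 higher between the strains in hypoxia. Of all targets, 120 were then higher and 90 lower between the ratios, and 88 higher between the strains in hypoxia. Block 1 alone gave 2 higher and 2 lower between the ratios and 2 higher between the strains in hypoxia, and block 2 alone gave 0 higher in Ofd2Δ cells and 2 lower between the ratios. Over all targets block 1 gave 109 higher and 58 lower between the ratios, and 84 higher between the strains in hypoxia. Block 2 gave 17 higher in Ofd2Δ cells and 38 lower between the ratios. With the RMA convolution background, added after seeing the data, 0 genes were higher in Ofd2Δ cells, against 20 of all targets. For the 27 genes of the main table the counts were 0 higher and 2 lower in Ofd2Δ, 0 higher and 1 lower in wt cells, and 1 lower between the strains in hypoxia. Without dim targets they were 0 higher and 1 lower in Ofd2Δ, 0 higher and 2 lower in wt cells, 0 lower between the ratios and 0 lower between the strains in hypoxia. With dim set at the 10th percentile 9 genes were dim, and by the control spots 0, against 500 and 14 of all targets. Without the Ofd2Δ hypoxia array in the normalisation, also added after seeing the data, the wt median was 0.949, where all targets had 1.00. Leaving out the background correction, or fitting normexp to all spots (added after seeing the data as well), left these counts within 1.5-fold. The causes were not tested.

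Among single genes, alr2 left the 2-fold calls at 0.526 in Ofd2Δ and 0.561 in wt cells with the RMA background, at 0.539 in Ofd2Δ cells with median scaling and at 0.524 in wt cells with the median of the probes. With the RMA background, yhb1 entered them in Ofd2Δ cells at 0.483. Block 2 alone put pfl7 at 0.503 and SPBPB2B2.06c at 1.94 in Ofd2Δ cells. The genes named here are dim, apart from yhb1.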
